A study of Mus musculus with 400 samples.

Results

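The nuclear genes of oxidative phosphorylation were described in single sensory neurons of the mouse dorsal root ganglion (DRG). The members are the 88 of 24754 gene rows whose symbol begins with Nduf, Uqcr, Atp5 or Cox with a number from 4 to 8. They hold 7 core subunits, 29 accessory subunits and 8 assembly factors of complex I, 8 subunits of complex III, 20 genes of complex IV and 15 subunits of the ATP synthase. The remaining member is Atp5s, a factor of the ATP synthase that shares the prefix. Membership was set by symbol alone, but this set of symbols was chosen with earlier results of these data known.

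The cells came from cervical DRG of naive mice aged 6 to 12 weeks that carried Nav1.8-Cre and the reporter allele R26CAG-floxStop-tdTomato, and were sorted one by one for the red reporter tdTomato. Cre is driven by Scn10a, the gene of the sodium channel Nav1.8, so the reporter marks nociceptors and C-fibre neurons above all, and any cell with past Cre activity. The 6 mice were named Blue and Red (run 1), Control (run 2), Control1 and Control2 (run 3) and Control6 (run 4). All 6 were of 1 genotype and 1 condition, so classes of cells were compared within the same mice, and the mouse was the replicate. Of 394 cells with values, 371 had at least 500 detected genes and were kept.

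Cells were assigned to 6 gates by the level of marker genes that are not members, in CPM, the counts scaled to a common total per cell. The Th gate (at least 100 CPM) holds C-fibre low-threshold mechanoreceptors by its gene. The Nefh gate (at least 500 CPM) holds cells rich in the neurofilament heavy chain, a mark of myelinated neurons. The Calca and Tac1 gate (at least 2000 and 1000 CPM) holds peptidergic neurons. The Mrgprd gate (at least 200 CPM) holds non-peptidergic nociceptors. The Mrgpra3 gate (at least 50 CPM) and the Sst or Nppb gate (at least 100 CPM) hold neurons known for itch. Exactly 1 gate was passed by 329 cells, 2 gates by 14 cells and no gate by 28 cells. The 329 cells divide into 34 in the Th, 17 in the Nefh, 81 in the Calca and Tac1, 44 in the Mrgpra3 and 45 in the Sst or Nppb gate, and all others in the Mrgprd gate, the largest.

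A mouse entered the test of a gate with at least 3 such cells. This gave 2 mice in the Th gate and 2 in the Mrgpra3 gate, all of run 1, 1 mouse in the Nefh gate (Control), 4 in the Sst or Nppb gate, and 6 each in the Calca and Tac1 and the Mrgprd gates. Kept cells held a median of 30397 counts, with a range from 909 to 324939. Medians by gate were 30986 counts in the Th, 84053 in the Nefh, 19601 in the Calca and Tac1, 46068 in the Mrgprd, 39383 in the Mrgpra3 and 16991 in the Sst or Nppb gate. A count of the driver gene Scn10a was present in 94.1% of cells of the Th gate and in every cell of the other 5 gates.

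Oxidative phosphorylation passes electrons from NADH through complex I, ubiquinone, complex III and cytochrome c to oxygen at complex IV, and the proton gradient so made drives the ATP synthase. The complexes are built from nuclear and mitochondrial gene products. The 13 subunits encoded by mitochondrial DNA were not analysed here. Neurons spend much of their ATP on sodium pumping, and several complex IV subunits have a second gene that is used in muscle, testis or lung.

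Promoter sequences are shown for 6 members on which the results turn or that carry a known motif just before the start. RefSeq promoters (GRCm38.p6) were found for 71 of the 88 members, each from 250 bases before to 50 after the gene start. Motifs of 3 factors known to act on respiratory genes were searched on both strands. The NRF1 motif GCGCATGC (reverse GCATGCGC) was present in 11 of 71 members (15.5%), against 3.05% of the 27025 genes in the table. The YY1 motif AAGATGGC (reverse GCCATCTT) was present in 10 members (14.1%), against 3.19% of all genes. The GABPA motif CCGGAAGT (reverse ACTTCCGG) was present in 5 members (7.04%), against 4.31% of all genes. A match is a run of letters and not a binding site. The 120 bases before the start follow, 5′ to 3′ on the strand of the gene, with matches that lie wholly inside it in capitals. Cox5a is shown because it had the smallest p across gates, and has no match. The others were picked for a motif, and all were higher in the Th gate in run 1. Of the members higher there, 37 had a promoter. The NRF1 motif was present in 5 of these 37 (13.5%), the YY1 motif in 4 (10.8%) and the GABPA motif in 4 (10.8%). A link of motifs to the Th gate was not tested. Atp5k and Ndufa11 hold the NRF1 motif, which overlaps its own reverse, and Uqcr11, Atp5h and Uqcrh hold the GABPA motif. Uqcr11 also holds the NRF1 motif in reverse, across the gene start, so that it runs past the end of the printed stretch and is not in capitals.
Cox5a (chr9:57521112-57521231, plus strand): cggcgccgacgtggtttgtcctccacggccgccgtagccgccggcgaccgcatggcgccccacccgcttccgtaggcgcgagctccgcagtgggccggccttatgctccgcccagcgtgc
Atp5k (chr5:108434400-108434519, minus strand): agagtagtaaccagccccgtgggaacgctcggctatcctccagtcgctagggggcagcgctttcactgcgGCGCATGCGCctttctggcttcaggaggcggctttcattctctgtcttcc
Ndufa11 (chr17:56717642-56717761, plus strand): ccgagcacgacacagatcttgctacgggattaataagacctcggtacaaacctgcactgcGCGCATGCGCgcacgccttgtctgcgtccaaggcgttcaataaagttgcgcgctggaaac
Uqcr11 (chr10:80406822-80406941, minus strand): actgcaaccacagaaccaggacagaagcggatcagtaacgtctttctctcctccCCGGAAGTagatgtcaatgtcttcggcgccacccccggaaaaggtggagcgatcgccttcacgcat
Atp5h (chr11:115419920-115420039, minus strand): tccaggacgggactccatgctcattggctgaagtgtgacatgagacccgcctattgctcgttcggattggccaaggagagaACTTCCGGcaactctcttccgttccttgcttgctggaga
Uqcrh (chr4:116075071-116075190, minus strand): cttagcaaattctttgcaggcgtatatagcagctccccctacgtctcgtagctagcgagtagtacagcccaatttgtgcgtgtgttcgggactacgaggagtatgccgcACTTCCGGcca

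The 88 genes together made up a sizeable part of the transcriptome of each cell, and the Th gate held the highest summed level. The sum was 26039 CPM in mouse Blue and 23468 CPM in mouse Red in the Th gate. The other 4 gates of these mice lay between 17529 and 20252 CPM, so that the groups did not overlap in run 1. Over mice with at least 3 cells, the sum averaged 24753 ± 1818 CPM in the Th gate (SD, n = 2). It was 20927 CPM in the single mouse of the Nefh gate. It averaged 18572 ± 916 CPM in the Calca and Tac1 gate (SD, n = 6), 18023 ± 2163 CPM in the Mrgprd gate (SD, n = 6), 17695 ± 236 CPM in the Mrgpra3 gate (SD, n = 2) and 16957 ± 2879 CPM in the Sst or Nppb gate (SD, n = 4). The last 4 gates overlapped between mice. Within mice the sum was lower in the Mrgpra3 than in the Mrgprd gate in 6 of 6, although 4 of these mice had only 2 cells in the Mrgpra3 gate. The mean of the Sst or Nppb gate includes mouse Control, at 14115 CPM, with 1 shallow cell at 2102 CPM.

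Mice with only 1 or 2 cells in the Th gate gave like values. They were 23078 CPM in Control, 23542 CPM in Control1, 23969 CPM in Control2 and 20896 CPM in Control6. The Th gate had the highest sum of all gates in 5 of 6 mice, and in Control6 the Nefh gate was higher, at 22836 CPM from 2 cells.

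**Figure D1:**
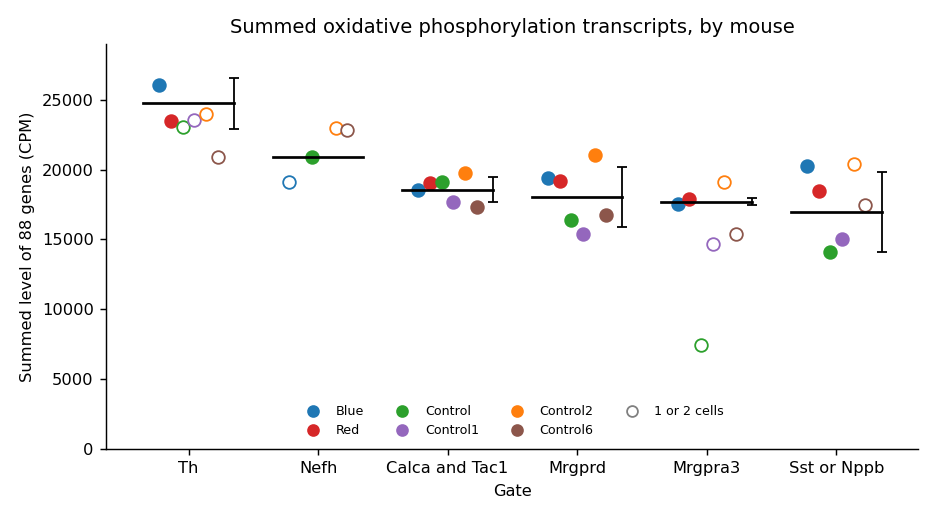
Summed level of the 88 genes in CPM (y axis) for each gate (x axis). Each point is the mean of 1 mouse, open where it rests on 1 or 2 cells; the line is the mean of mice with at least 3 cells and the bar its SD. Points of the Th gate lie between 20896 and 26039 CPM.

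The make-up by complex varied little between gates, given as the share of the summed CPM averaged over mice. Accessory subunits of complex I took 27.3% to 29.2% and core subunits 4.08% to 4.83%. Complex III took 7.86% to 9.76%, complex IV 26.8% to 28.7% and the ATP synthase 26.9% to 29.98%. Assembly factors of complex I, which are not part of the finished enzyme, took only 1.11% to 1.87%. Their sum averaged 274 ± 22.9 CPM in the Th gate (SD, n = 2) and 308 ± 32.4 CPM in the Sst or Nppb gate (SD, n = 4).

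The highest mean levels over all kept cells were 818 CPM for Atp5b, the catalytic beta subunit of the ATP synthase, 656 CPM for Cox6a1 and 642 CPM for Cox8a. Atp5g3 (635 CPM), Cox6c (560 CPM), Ndufa4 (558 CPM) and Atp5a1 (508 CPM), the alpha subunit, followed. Of complex III, Uqcrh had 359 CPM, Uqcrq 306 CPM and Uqcr11 263 CPM. Of complex I, the accessory genes Ndufv3 (316 CPM), Ndufc1 (304 CPM) and Ndufb8 (295 CPM) stood above the core genes Ndufv1 (186 CPM) and Ndufv2 (127.3 CPM). The assembly factors with the highest level, Ndufaf8, Ndufaf7 and Ndufaf5, had 54.8, 44.7 and 37.7 CPM. Per kilobase of transcript the order was different. Atp5b, with a long transcript, had 427 CPM per kb, against 1148 CPM per kb for Cox6a1 and 1167 CPM per kb for Cox8a. Levels of Cox7c and Ndufs5 are uncertain, since 68.8% and 61.5% of their low values were fractions of a count, as occurs where genes share reads.

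Complex IV was read almost wholly from the isoforms of general tissues. Cox4i1 had a count in 360 of 371 cells, Cox6a1 in 364, Cox6b1 in 358, Cox7a2 in 362, Cox7b in 359 and Cox8a in 365. Their partners in other tissues were rare. Cox6a2, the isoform of heart and skeletal muscle, had a count in 3 cells, the lung isoform Cox4i2 in 6, the testis isoforms Cox6b2 and Cox7b2 in 12 and 4, and the muscle isoform Cox8b in 1. Cox8c, another testis isoform, had no count in 371 cells, which allows a share of cells with a count of up to 0.809% (3 counts of the total) at the depth of these cells. Such limits and the exact (Clopper-Pearson) intervals cover counting error only. Of the 6 cells with Cox4i2, 5 were among the 81 of the Calca and Tac1 gate (6.17%, exact 95% interval 2.03% to 13.8%). Of the 3 cells with Cox6a2, 2 were among the 17 of the Nefh gate, and so was the 1 cell with Cox8b. That gate had the highest median depth. Ndufa4 had a count in 361 cells and its relative Ndufa4l2, known for its induction by hypoxia, in 2.

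Cox7a1, the isoform of subunit VIIa in heart and skeletal muscle, was the exception, and was found mainly in the Nefh gate. It lies on chromosome 7. A count was present in 12 of 17 cells of the Nefh gate (70.6%, exact 95% interval 44.04% to 89.7%), against 6 of 312 cells of the other gates (1.92%, interval 0.709% to 4.14%). Cells that passed no gate had it in 1 of 28. The mean level was 12.2 CPM in the Nefh gate, and in no other gate was it above 1.22 CPM. It remained far below its partner Cox7a2, the general isoform of the same subunit. Per kilobase Cox7a1 had 31.1 and Cox7a2 849 CPM in cells of the Nefh gate.

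All cells that passed the Nefh gate, with or without another gate, were then set against all other gated cells of the same mouse. Cox7a1 was counted in 10 of 17 Nefh cells and 0 of 26 other cells of mouse Control. In Control2 it was counted in 2 of 3 and 0 of 18 cells, and in Control6 in 2 of 3 and 0 of 20 cells. Mouse Red had 1 of 1 Nefh cells and 4 of 120 other cells with a count, and mouse Blue had 0 of 2 Nefh cells and 2 other cells with a count. The level was therefore higher in the Nefh cells in 4 of 5 mice. The mean difference was 1.42 ± 0.903 on the scale of log2(CPM + 5) (SD, n = 5; exact two-sided sign-flip permutation test, p = 0.125). The smallest p that 5 mice allow is 0.0625. With no filter on low values, limma gave Cox7a1 a difference of 1.67 ± 0.27 (SE) in the Nefh gate against the mean of the other 5 gates, with an adjusted p of 0.0013. That value rests on the cells of 1 mouse.

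Depth and other RNA differed between these groups of cells. Cells of the Nefh gate had a median of 84053 counts, against 30170 counts in the other gates. Their median satellite glial sum (6 genes, led by Apoe) was 2768 CPM, against 197 CPM. Their median sum of Schwann cell genes was 2582 CPM, against 719 CPM, and cells were not split by that sum. Among cells with at least 50000 counts, Cox7a1 was counted in 12 of 14 Nefh cells and 1 of 58 others. Among the other gates it was counted in 1 of 77 cells with a glial sum of at least 500 CPM, and in 5 of 235 cells below it. After thinning to 10000 counts a cell, 1 of 15 Nefh cells and 3 of 296 others kept a count, a level too near 1 count to compare.

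**Figure D2:**
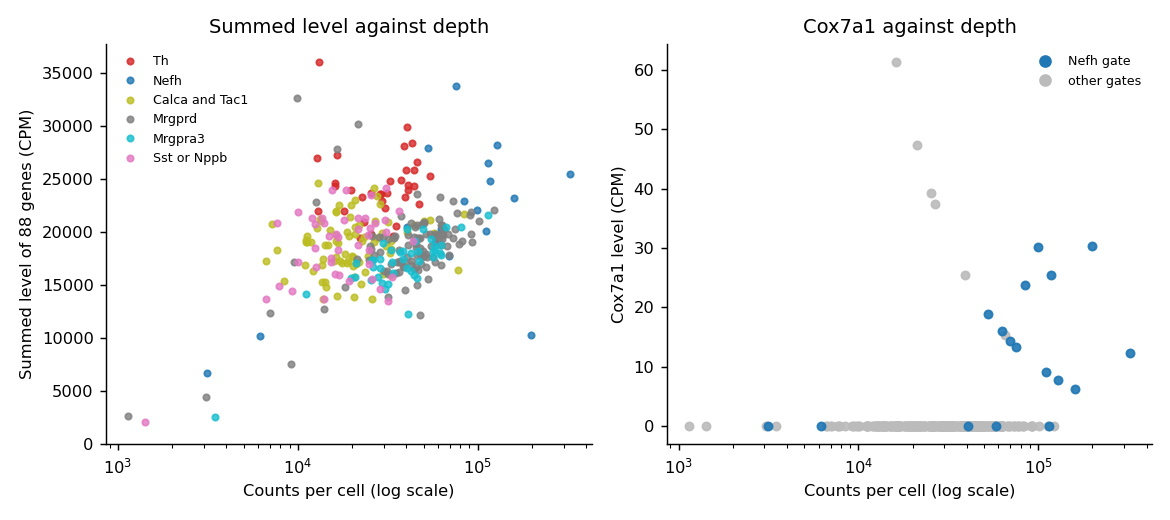
Left, summed level of the 88 genes (CPM) against counts per cell (log scale) for the 329 cells that passed exactly 1 gate. Right, Cox7a1 (CPM) against counts per cell; 12 of 17 cells of the Nefh gate lie above 0, against 6 of 312 cells of the other gates.

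The c ring of the ATP synthase is read from 3 genes that encode the same mature protein, and all 3 were in use. Per kilobase, with the shortest principal transcript of each gene, Atp5g3 gave 51.2% to 57.5% of the sum of the 3 genes over the 6 gates. Atp5g1 gave 31.6% ± 1.205 in the Th gate (SD, n = 2) and 30.4% in the Nefh gate (1 mouse), against 22.5% ± 4.51 in the Calca and Tac1 gate and 25.7% ± 2.29 in the Mrgprd gate (SD, n = 6 each). Transcripts of Atp5g1 differ from 596 to 4715 bases in the annotation, so its share depends on the length used, while its rank among gates does not. Within run 1 the level of Atp5g1 was higher in the Th gate by 0.56 ± 0.11 (log2, SE; limma, adjusted p = 0.000633).

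The test of all gates used limma on log2(mean CPM + 5) of each mouse and gate, with mouse as a block, over the 9169 genes whose mean reached 10 CPM. Of the 88 members 79 were tested. The 9 left out are the rare isoforms Cox4i2, Cox6a2, Cox6b2, Cox7a1, Cox7b2, Cox8b, Cox8c and Ndufa4l2, and the assembly factor Ndufaf6. A difference between gates was called for 11 of 79 members at an adjusted p under 0.05, against 24.5% of all genes tested. In run 1 alone, where all 5 gates other than Nefh had 2 mice each, 43 of 79 were called, against 48.6% of all genes. Those 43 include all 11. The members' share lay below that of all genes in the fit of all runs and somewhat above it in run 1, and this difference was not tested.

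The 11 genes were Cox5a, Cox6c, Cox7a2 and Cox7a2l of complex IV, Atp5b, Atp5h and Atp5k of the ATP synthase, Uqcr10 and Uqcrq of complex III, and Ndufb8 and Ndufs7 of complex I. Cox5a had the smallest p (limma, adjusted p = 0.000343), and Ndufb8 was next (adjusted p = 0.00152). Without mouse Blue or without mouse Red, which left the Th and Mrgpra3 gates with 1 mouse each, no member was called. In runs 2 to 4 alone limma called 0 of 79 members across gates at an adjusted p under 0.05, with 9 at an unadjusted p under 0.05. The shares of all genes called in these settings are not given here, so these counts are not read as a result about the members.

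**Figure D3:**
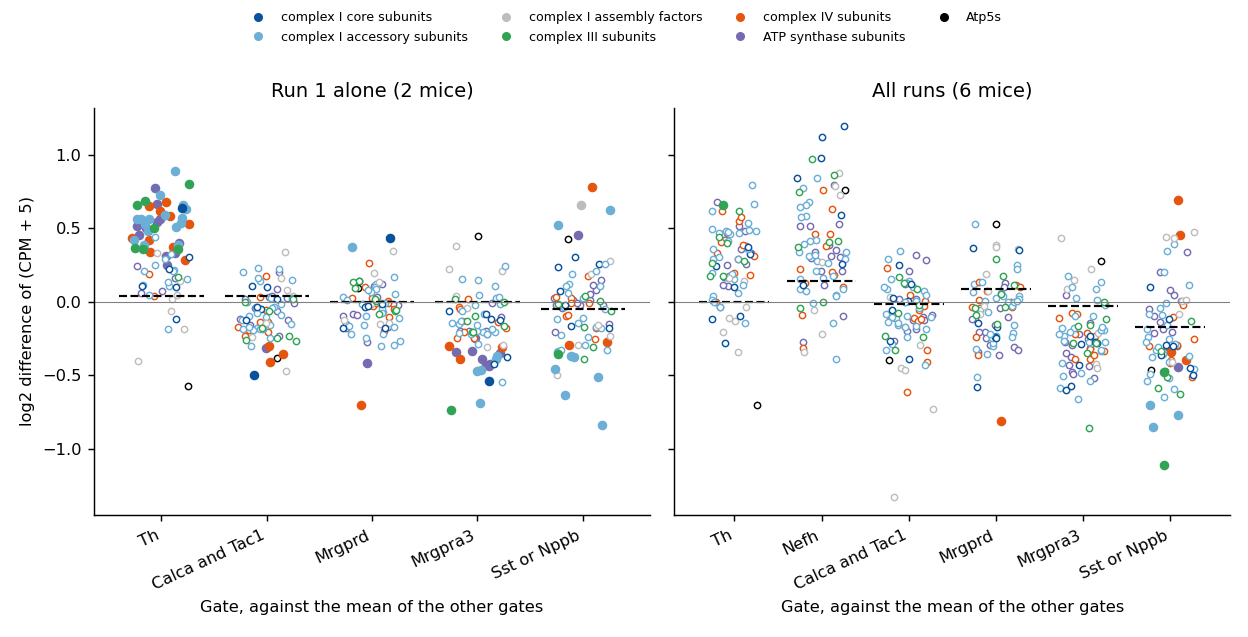
Difference of each gate from the mean of the other gates, on the log2(CPM + 5) scale, for the 79 tested members. Each point is a gene, filled at an adjusted p under 0.05 (limma), and the dashed line is the median of all genes tested. In run 1 the Th gate has 45 filled points, all above 0.

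Genes of every complex were higher in the Th gate when the comparison was kept within run 1, the run with Th cells enough for the test. There 45 of 79 members rose and 0 fell, against 18% of all genes higher and 17.1% lower. The median difference of the 79 was 0.36 (log2), against 0.04 over all genes. The level was highest in the Th gate in both mice of run 1 for 44 members. The matching share of all genes is not given here. In the fit of all runs 1 member, Uqcrq, rose and 0 fell, against 3% of all genes higher and 3.44% lower. The median was 0.29, against 0.00 over all genes, and 65 of 79 members lay above 0. Counts in other settings come without the share of all genes called there. Mouse Control has no Th value in the test, but it holds the only Nefh value, which enters each contrast over all runs. Leaving out Control gave 11 calls in the Th gate, then compared with gates that no longer include Nefh. The median was then 0.36, as in run 1 alone. With edgeR on recovered counts 22 members were called in the Th gate. The count was 0 without Blue, without Red, with every cell that passes a gate and with the mean of log2 values over cells, and Uqcrq was lost in each.

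Uqcrq, a subunit of complex III, was the member called in the Th gate over all runs. It had 476 CPM in Blue and 441 CPM in Red in the Th gate, against 177 to 382 CPM in the 19 other values of mice and gates. The Th values lay above all others. The difference was 0.65 ± 0.19 over all runs (log2, SE; limma, adjusted p = 0.0465) and 0.68 ± 0.09 in run 1 (adjusted p = 2.33e-05).

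In run 1, complex III had 7 of 8 subunits higher in the Th gate, complex IV 10 of 12, the ATP synthase 11 of 15, accessory complex I 16 of 29 and core complex I 1 of 7. None of the 7 tested assembly factors of complex I rose. The genes that follow were picked for the size of their difference in run 1, after their values were seen. Ndufa12, an accessory subunit, was higher by 0.89 ± 0.15 (log2, SE; limma, adjusted p = 0.000294). Uqcr10, a small subunit of complex III, had 428 and 297 CPM in the Th gate of Blue and Red, against 138 to 279 CPM in the other gates of these mice. Atp5j, the coupling factor 6 of the ATP synthase stalk, had 491 and 480 CPM, against 236 to 330 CPM. Atp5b had 1104 and 1086 CPM, against 682 to 861 CPM. For these 3 genes both Th values lay above all values of the other gates in run 1. Ndufs7, which carries the last iron-sulfur cluster of complex I, was the core subunit that rose, by 0.64 ± 0.16.

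Markers of other cell types were read beside the Th gate. The summed Schwann cell list (7 genes) had a median of 2090 CPM, with a range from 391 to 4046 CPM, against medians of 160 to 2582 CPM in the other gates. In the Th gate it was mostly Pmp22 (1633 CPM), and the myelin gene Mbp was at 406 CPM, against 18.7 to 307 CPM in the other gates. The myelin gene Mag was at 0. The list of fibroblast and mural genes (7 genes, 3 with a count) had a median of 766 CPM, almost all from Rgs5 (695 CPM), with Col1a1, Dcn, Acta2 and Cspg4 at 0. The satellite glial sum had a median of 192 CPM in the Th gate, within the 158 to 290 CPM of the gates other than Nefh. With cells of at least 500 CPM of satellite glial genes left out, 15 members were called in the Th gate. This setting also lost the Nefh gate, so the Th gate was set against a different mean. The part of each change in that count was not tested. The share of all genes called in that setting is not given here. The part of Pmp22, Mbp and Rgs5 RNA in the result was not tested.

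Cox5a, the nuclear subunit Va that sits beside the catalytic core of complex IV, had its lowest mean level in the Mrgprd gate. It lies at chr9:57521274-57532426 on the plus strand of GRCm38. In the Mrgprd gate its level was 137 CPM in the lowest of 6 mice, 174 CPM at the median and 213 CPM in the highest. Values were 397 and 415 CPM in the Th gate, 447 CPM in the Nefh gate, 252 and 256 CPM in the Mrgpra3 gate, and 268, 371, 424 and 484 CPM in the Sst or Nppb gate. In the Calca and Tac1 gate the lowest, median and highest of 6 mice were 187, 225 and 255 CPM, which overlap the Mrgprd values. In 5 of 6 mice the Mrgprd gate was nonetheless the lowest, and in Control2 it had 213 CPM, against 191 CPM in the Calca and Tac1 gate.

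The difference of Cox5a in the Mrgprd gate was -0.81 ± 0.13 (log2, SE; limma, adjusted p = 0.000271), and no other member was called there. All genes were called lower at 5.43% and higher at 6.71%. Within run 1 the difference was -0.70 ± 0.09 (adjusted p = 3.92e-05), and within runs 2 to 4 it was -0.85 ± 0.28 (adjusted p = 0.112). In run 1 the ATP synthase gene Atp5j also fell, while Ndufv1, the NADH-binding core subunit of complex I, and Ndufs4, an accessory subunit, rose (9.72% of all genes lower, 9.71% higher). The median of the 79 members was -0.04 in the Mrgprd gate over all runs, against 0.09 over all genes.

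Cox5a was also higher in the Sst or Nppb gate, by 0.45 ± 0.15 over all runs (limma, adjusted p = 0.0375) and by 0.78 ± 0.09 in run 1 (adjusted p = 9.24e-06). Uqcrq also had calls in opposite directions over all runs, higher in the Th gate and lower in the Sst or Nppb gate.

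**Figure D4:**
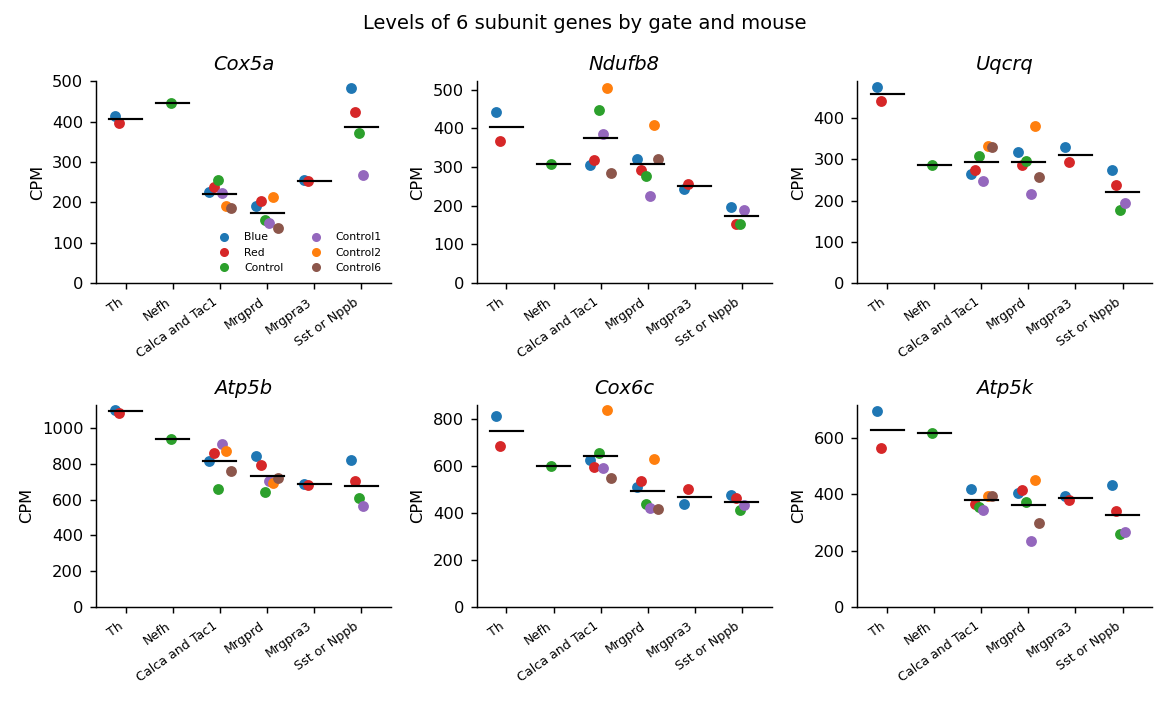
Levels (CPM) of 6 subunit genes in each gate. Points are means of a mouse over at least 3 cells and lines are means over mice. Cox5a is at 137 to 213 CPM in the Mrgprd gate and at 268 to 484 CPM in the Sst or Nppb gate, and Ndufb8 is at 152 to 196 CPM in the Sst or Nppb gate.

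The Sst or Nppb gate had the most calls over all runs, with 2 members higher and 9 lower, against 6.38% of all genes higher and 13% lower. The median of the 79 members was -0.29, and that of all genes -0.17. In run 1 it was -0.03, against -0.05 over all genes, and without mouse Control it was -0.09. Both of these settings lack the Nefh gate, so the mean of the other gates is not the same. Ndufb8, an accessory subunit of complex I, was lower in the Sst or Nppb gate past the threshold in 19 of 20 alternative settings. It had 196, 152, 154 and 188 CPM in Blue, Red, Control and Control1, against 226 to 505 CPM in the 17 values of the other gates. The groups did not overlap. The difference was -0.85 ± 0.15 over all runs (log2, SE; limma, adjusted p = 0.000561) and -0.84 ± 0.10 in run 1 (adjusted p = 1.49e-05).

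The other genes lower in the Sst or Nppb gate were Ndufa6 and Ndufb4 of complex I, Uqcrfs1 and Uqcrq of complex III, Cox6c and Cox7a2 of complex IV, and Atp5b and Atp5k of the ATP synthase. Uqcrfs1, the Rieske iron-sulfur protein, had the largest difference over all runs, at -1.11 ± 0.30 (limma, adjusted p = 0.0137), but in run 1 it was -0.39 ± 0.15 (adjusted p = 0.0583) and not called. Its values were 92.003 CPM in Blue, 105.9 CPM in Red, 15.7 CPM in Control and 57.1 CPM in Control1, against 57.9 to 194 CPM elsewhere. The low value of Control came from 4 cells, 1 of which held few counts and a member sum of 2102 CPM. Without mouse Control, and so without the Nefh gate, the count of members called in this gate was 2. It was 2 without Blue and 1 without Red. Cox7a2l, a factor that joins complexes III and IV, was higher by 0.69 ± 0.21 (adjusted p = 0.0284). Its values were 278, 268, 462 and 322 CPM in Blue, Red, Control and Control1, against 73.7 to 329 CPM elsewhere, so the groups overlapped.

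Within run 1, 5 members rose and 10 fell in the Sst or Nppb gate, against 13.7% of all genes higher and 19.9% lower. Of the 11 members called over all runs, 6 were called there too. Among the 10 were Ndufb8, Ndufb4, Ndufa6, Uqcrq and Cox6c. The 5 that rose were Cox5a, the ATP synthase stalk gene Atp5o, the accessory genes Ndufa9 and Ndufa10 and the assembly factor Ndufaf8.

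In the Mrgpra3 gate most members lay below the mean of the other gates, 67 of 79 over all runs. Whether they were called depended on the fit. Over all runs limma called no member, against 1.21% of all genes called higher and 0.927% lower. At an unadjusted p under 0.05 limma had 7 of 79 members, against 814 of the 9169 genes tested. With edgeR 18 members were called and with DESeq2 14, and the shares of all genes in these fits are not given here. The median was -0.27 (log2), against -0.03 over all genes. In run 1, 0 members rose and 18 fell, against 9.81% of all genes higher and 8.31% lower, and the median was -0.20, against 0.00. The 18 were 8 of the 15 ATP synthase genes tested, 3 of complex IV, 1 of complex III and 6 of complex I. Uqcr10 fell the most, with 161 and 138 CPM in Blue and Red, against 186 to 428 CPM in the other gates of these mice (-0.74 ± 0.11, limma, adjusted p = 0.000122).

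In the Calca and Tac1 gate limma called no member over all runs, against 5.57% of all genes higher and 4.32% lower. At an unadjusted p under 0.05 it had 8 of 79 members, against 1816 of the 9169 genes tested. With edgeR 15 members were called and with DESeq2 7, and the shares of all genes in these fits are not given here. In run 1, 5 members fell, namely Ndufv1, Cox5a, Cox7a2l, Atp5d and Cox7a2, and 0 rose, against 10.1% of all genes lower and 12.7% higher. Ndufv1 was thus lower in the Calca and Tac1 gate and higher in the Mrgprd gate.

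The Nefh gate has 1 mouse, assumed in the fit to vary like the others. Counts of members called there are listed with the other settings below and are not read as a result. The median difference was 0.32, against 0.14 over all genes, and 67 of 79 members lay above 0. The 7 core subunits of complex I were all above 0, with a median of 0.84. Ndufs7 was at 191 CPM there, against 48.4 to 180 CPM in all other values, with a difference of 1.19 ± 0.43 (limma, adjusted p = 0.318).

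Depth was set beside these sums. In the Th gate the 17 shallower cells averaged 23920 CPM for the 88 genes and the 17 deeper cells 24818 CPM. In the Mrgprd gate the shallower and deeper cells averaged 17639 and 19311 CPM, in the Mrgpra3 gate 15957 and 18150 CPM, and in the Sst or Nppb gate 17640 and 19442 CPM. In the Calca and Tac1 gate they averaged 18535 and 18998 CPM, and in the Nefh gate 19908 and 22573 CPM. The average of the shallower cells of the Th gate thus lay above that of the deeper cells of every other gate. Single cells overlapped, with Th cells down to 19456 CPM and Calca and Tac1 cells up to 24640 CPM. The Spearman correlation of the sum with depth over cells of a gate was between 0.16 (Calca and Tac1) and 0.67 (Mrgpra3), over 81 and 44 cells that share libraries' runs and mice. After thinning to 10000 counts, the cells of each gate averaged 24424 CPM in the Th (34 cells), 22967 CPM in the Nefh (15), 18835 CPM in the Calca and Tac1 (77), 18650 CPM in the Mrgprd, 17435 CPM in the Mrgpra3 (43) and 19325 CPM in the Sst or Nppb gate (40). Thinning left out 18 cells with fewer counts, and in the cells kept the Sst or Nppb gate stood above the Calca and Tac1, Mrgprd and Mrgpra3 gates.

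Other genes of energy metabolism were counted beside the members, to be read against the 18% of all genes that rose in the Th gate in run 1. Of complex II and cytochrome c, 5 of 6 genes rose in the Th gate in run 1 and 0 fell, and over all runs 1 rose. That gene, Cycs, the cytochrome c of somatic cells, was higher by 0.85 ± 0.22 (log2, SE; limma, adjusted p = 0.0257). Of 14 genes of the tricarboxylic acid cycle tested, 6 rose in the Th gate in run 1 and 0 fell, and over all runs 0 were called there and 4 fell in the Sst or Nppb gate. Of 28 assembly factors of complexes II to V tested, 5 rose in the Th gate in run 1. Of 11 regulators of mitochondrial genes tested, 2 rose there. Both shares are near that of all genes. The 2 regulators were Esrra and the coactivator gene Ppargc1a, higher by 1.44 ± 0.25 and 1.38 ± 0.40. Across gates over all runs Ppargc1a was the regulator called, and it was lower in the Sst or Nppb gate (-1.57 ± 0.42; limma, adjusted p = 0.0126).

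Glycolytic genes were counted last. Of 16 glycolytic genes tested 10 were called across gates over all runs (62.5%), against 11 of 79 members (13.9%) and 24.5% of all genes. The 3 of smallest p were Eno2, Tpi1 and Ldha. Eno2, the neuronal enolase, was lower in the Mrgprd gate, with a log2 difference of -3.42 ± 0.18 (SE; limma, adjusted p = 8.99e-11), and higher in the Th gate by 1.16 ± 0.26 (adjusted p = 0.00912). Tpi1, triose phosphate isomerase, was lower in the Mrgprd gate, at -1.62 ± 0.18. Ldha, a lactate dehydrogenase subunit, was lower in the Mrgpra3 gate, at -1.43 ± 0.19, and higher in the Th gate, by 0.78 ± 0.19. In the Th gate in run 1, 9 glycolytic genes rose and 1 fell. The difference between the lists was not tested.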

How the data were processed

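Single sorted DRG cells were sequenced as 1 library each with molecular barcodes, per the labels' protocols. STAR 2.7.3a and mm10 are the tool and build listed in the submitters' processing notes. The authors deposited a signal for each gene in each cell. It behaves as a gene count times a factor of the cell, and the setting of that factor is not given in these sources. In the median cell 96.5% of low values were whole multiples of 1 count (tolerance 0.1). Whole reads were recovered in 252 of 394 columns, and in the other 142 values were rounded. The labels list 400 cells; 6 were not analysed here. No column was identical to another. The 26 rows named by dates (0.154% of signal) and Rn45s (on average 7.10% of signal) were left out, and values were scaled to CPM per cell. Whether mice stand for separate preparations of tissue is taken from the labels.

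Mean CPM per mouse and gate, as log2(CPM + 5), was tested with limma 3.58.1 in R 4.3.3. Mouse entered as a block, since values of 1 mouse come from the same animal. The fit had a trended prior and Benjamini-Hochberg adjustment over all genes. Each gate was set against the mean of the others. A fold on this scale understates the change of low genes. The test was checked on simulated data. A small share of genes was changed in 1 gate at a time, and no mouse effects were drawn. Recovery in the real data may therefore differ. In the simulation a log2 change of 1 was recovered in 11% of changed genes in the Th and 13% in the Mrgpra3 gate. The share was 4% in the Nefh, 24% in the Sst or Nppb, 31% in the Mrgprd and 40% in the Calca and Tac1 gate. Few calls in a gate therefore do not show that its members are unchanged. CPM is relative to the total of a cell, so a change of total RNA is not seen. Transcript lengths are the shortest APPRIS principal transcript of GENCODE vM21 (GRCm38), and positions were found for 87 members. Alternatives included edgeR 4.0.16 and DESeq2 1.42.0 on recovered counts, thinning with scipy 1.17.1 and numpy 2.4.6, and leaving out mice. The members, gene lists and gates were chosen with earlier results of these data known. Genes were named by rule: in each contrast up to 6 called members of largest difference each way, the 10 of smallest p across gates, the tissue isoforms, the 3 of highest level in each complex, and up to 3 called genes of each other list. Values of 2 genes that this rule or a marker list takes in are not reported here.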

Additional observations from a re-analysis of the deposited data

Results flagged for a closer look

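Of 63 sets of values of a gene or sum over the mice of 1 gate, 3 held a mouse far from the others. Chance alone marks about 1 set in 20, which is near this number. All 3 values belong to mouse Control2 and are high. Cox6c was at 840 CPM in its Calca and Tac1 gate, against 549 to 657 CPM in the other 5 mice. Uqcr10 was at 366 CPM in the same gate, against 176 to 243 CPM. Each rests on 3 cells. Cox7a2 was at 715 CPM in its Mrgprd gate of 9 cells, against 461 to 518 CPM. The cause was not tested.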

How the results depend on the processing

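Counts of members called depended on the mice, cells and test used. Outside the limma fit reported and run 1 alone, they come without the share of all genes called, here and above. They are given in the order across gates, Th, Nefh, Calca and Tac1, Mrgprd, Mrgpra3, and Sst or Nppb, and were 11, 1, 0, 0, 1, 0 and 11 in the limma fit reported. With at least 5 cells per mouse and gate they were 48, 31, 10, 7, 10, 21 and 21. With at least 1 cell, chosen after seeing the data, they were 22, 20, 2, 1, 1, 15 and 3. In run 1 alone they were 43, 45, 5, 4, 18 and 15, with no Nefh value, and in runs 2 to 4 alone they were 0 across gates, 0 in the Mrgprd and 1 in the Sst or Nppb gate. With edgeR they were 51, 22, 20, 15, 11, 18 and 14, and with DESeq2 44, 19, 8, 7, 9, 14 and 12. With weights by cell number they were 30, 14, 0, 8, 12, 9 and 13. Thinning gave 6, 2, 0, 1, 2, 1 and 1. The mean of log2 values gave 4, 0, 0, 0, 0, 0 and 17. Without the low-value filter they were 13, 5, 3, 4, 6, 3 and 14. With every cell that passes a gate they were 12, 0, 1, 3, 3, 1 and 18. With glial cells left out they were 14, 15, 4, 2, 1 and 7, with no Nefh value. Without the mouse block they were 9, 4, 0, 3, 1, 0 and 8. A pseudocount of 1 moved no count by over 1.5 times. Leaving out each mouse gave 0 to 15 across gates, 0 to 11 in the Th, 0 to 0 in the Nefh, 0 to 3 in the Calca and Tac1, 1 to 2 in the Mrgprd, 0 to 1 in the Mrgpra3 and 1 to 16 in the Sst or Nppb gate.

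None of the 13 called differences reversed in any alternative run. Cox5a in the Mrgprd gate passed the threshold in 18 of 20 and Ndufb8 in the Sst or Nppb gate in 19 of 20, while Cox7a2l in the Sst or Nppb gate passed in 5 of 20. With every cell that passes a gate the member sum was 18258 CPM in the Mrgpra3 and 21832 CPM in the Nefh gate, and after thinning it was 23591 CPM in the Nefh gate. CPM with mitochondrially encoded genes left out was not run, since those genes were not analysed here. Th and Mrgpra3 tests rest on run 1 and the Nefh test on 1 mouse. Without mouse Control, in run 1 alone and with glial cells left out, the gates were compared without Nefh. Depth limits genes near 10 CPM, such as Cox7a1.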
